A study of Rattus norvegicus with 6 samples.

Results

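The genes described here are those by which a skeletal muscle fibre releases, stores and removes calcium and by which it buffers its energy: Ryr1, Cacna1s, Casq1, Atp2a1 and Pvalb on the calcium side, and Ckm, Ckmt2, Pygm, Eno3 and Mb on the energy side. They were taken by gene name from tables of 34538 genes. Of the 10 names, 9 had a row, and Atp2a1 had none under that name. All 9 passed the filter on low counts, among 14818 genes tested.

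The RNA came from Sprague Dawley rats (outbred, all female) that underwent bilateral ovariectomy at 8 weeks of age to model osteoporosis and a transverse midshaft osteotomy of the left femur 12 weeks later, held by an intramedullary nail of 1.2 mm. The fracture was then injected around its ends with the gel alone (Gel, 3 libraries) or with the adhesive named MgPA-Gel (3 libraries), and 1 cm of femur around the break was sequenced as poly-A selected RNA. Both groups carried the ovariectomy, the fracture, the nail and an injection, and no uninjected group is used here. The sources used here do not name the time of harvest, and no label ties each library to its own animal. The p-values below therefore measure library-to-library spread, part of which could be technical.

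In muscle, an action potential moves Cacna1s, the voltage-sensing and pore-forming subunit of the Cav1.1 channel of the transverse tubule, which opens Ryr1, the calcium release channel of the sarcoplasmic reticulum. Casq1 (calsequestrin) holds the stored calcium in the lumen, Atp2a1 (SERCA1) pumps it back, and Pvalb (parvalbumin) binds it in the cytosol of fast rodent fibres. The ATP that this cycle and the sarcomere spend is restored by the creatine kinases Ckm in the cytosol and Ckmt2 in mitochondria, by glycogen breakdown through Pygm, by glycolysis in which Eno3 is the muscle enolase, and by respiration, to which Mb (myoglobin) supplies oxygen in oxidative fibres.

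Library totals ran from 13629242 (Gel 3) to 18197777 counts (MgPA-Gel 1). The labelled tissue is the fractured femur, and 6 osteoblast markers, led by Col1a1, had sums of 56995, 54453 and 103066 CPM across Gel 1, 2 and 3 and 35776, 63997 and 58427 CPM across MgPA-Gel 1, 2 and 3 (CPM being counts scaled to library sizes adjusted by the TMM method). Their lowest sum was thus in MgPA-Gel 1 and their highest in Gel 3, the libraries where the genes described below were highest and, in 8 of 9, lowest. The part of the bone content in those results was not tested. Genes on the mitochondrial chromosome took 24.0% and 25.9% of counts in Gel 1 and MgPA-Gel 1 and 5.29% to 8.83% in the other 4 libraries. With those genes left out of the fit, the median log2 fold change of the 9 genes (below) was 5.72, as with them.

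The genes are shown first by the sequence in front of them, and a link of that sequence to their levels was not tested. RefSeq promoter windows of build GRCr8 were found for 10 of 10 names, and the 250 bases before the gene start were searched on both strands. The E-box, CANNTG, is the element that the MyoD family of muscle transcription factors binds, and CAGCTG is the form of it that was counted apart after these windows had been read. An E-box was found in 10 of 10 windows, against 65.2% of 27457 windows of the same length. The CAGCTG form, which counts among the E-boxes, was found in 6 of 10 (Cacna1s, Casq1, Atp2a1, Ckm, Ckmt2 and Pygm), against 11.9%. TATAAA was found in 2 of 10 (Cacna1s and Mb), against 13.1%, and the MEF2 motif in 0 of 10, against 3.07%. A match is a description of the letters, not a binding site. In the windows below, capitals mark TATAAA and the E-boxes. The windows of Cacna1s, Ckm and Pygm are printed because each holds 2 CAGCTG, and Pvalb and Mb because they hold none and are set against each other further on. They lie at Cacna1s chr13:50045418-50045667 (+ strand), Ckm chr1:88189211-88189460 (+ strand), Pygm chr1:213119555-213119804 (+ strand), Pvalb chr7:111666290-111666539 (- strand) and Mb chr7:110647743-110647992 (- strand).
Cacna1s: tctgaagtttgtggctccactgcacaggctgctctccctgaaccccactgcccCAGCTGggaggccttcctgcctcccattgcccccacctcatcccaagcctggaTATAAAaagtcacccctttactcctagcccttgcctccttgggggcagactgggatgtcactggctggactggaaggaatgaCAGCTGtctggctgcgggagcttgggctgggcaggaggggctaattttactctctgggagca
Ckm: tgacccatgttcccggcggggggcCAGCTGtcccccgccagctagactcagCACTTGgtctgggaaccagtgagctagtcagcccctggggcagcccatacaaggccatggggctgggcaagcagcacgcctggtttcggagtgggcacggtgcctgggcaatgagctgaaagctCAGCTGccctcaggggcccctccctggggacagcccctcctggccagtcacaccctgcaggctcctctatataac
Pygm: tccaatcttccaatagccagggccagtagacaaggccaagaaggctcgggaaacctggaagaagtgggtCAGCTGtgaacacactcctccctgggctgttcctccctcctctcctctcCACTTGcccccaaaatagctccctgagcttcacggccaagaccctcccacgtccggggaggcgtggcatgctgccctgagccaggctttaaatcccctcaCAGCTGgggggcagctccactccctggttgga
Pvalb: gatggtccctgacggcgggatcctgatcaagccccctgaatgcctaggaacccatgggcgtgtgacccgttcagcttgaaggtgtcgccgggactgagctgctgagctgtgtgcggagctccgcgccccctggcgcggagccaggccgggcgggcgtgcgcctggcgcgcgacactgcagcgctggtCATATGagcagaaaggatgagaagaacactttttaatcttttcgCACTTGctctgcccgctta
Mb: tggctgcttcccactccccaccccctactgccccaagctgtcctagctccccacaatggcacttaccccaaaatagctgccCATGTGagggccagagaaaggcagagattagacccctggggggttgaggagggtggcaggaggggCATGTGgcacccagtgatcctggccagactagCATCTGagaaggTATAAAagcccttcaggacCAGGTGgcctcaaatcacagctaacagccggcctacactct

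All 9 genes were highest in MgPA-Gel 1, by 6.69 times the next library for Ryr1 up to 145 times for Pvalb. In 8 of the 9 that library stood more than 10 times above the next, as it did in 0.749% of all genes tested. MgPA-Gel 1 supplied from 82.2% (Ryr1) to 98.3% (Pvalb) of a gene's counts over the 6 libraries. In 6 genes (Ryr1, Cacna1s, Casq1, Ckm, Pygm and Eno3) the order of the libraries was the same, MgPA-Gel 1, MgPA-Gel 3, Gel 1, Gel 2, MgPA-Gel 2 and Gel 3. The 9 genes together took 0.0118%, 0.0110% and 0.000807% of all counts across Gel 1, 2 and 3 and 1.05%, 0.00420% and 0.0434% across MgPA-Gel 1, 2 and 3. In such bulk tissue, fewer fibres and less RNA per fibre cannot be told apart.

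**Figure D1:**
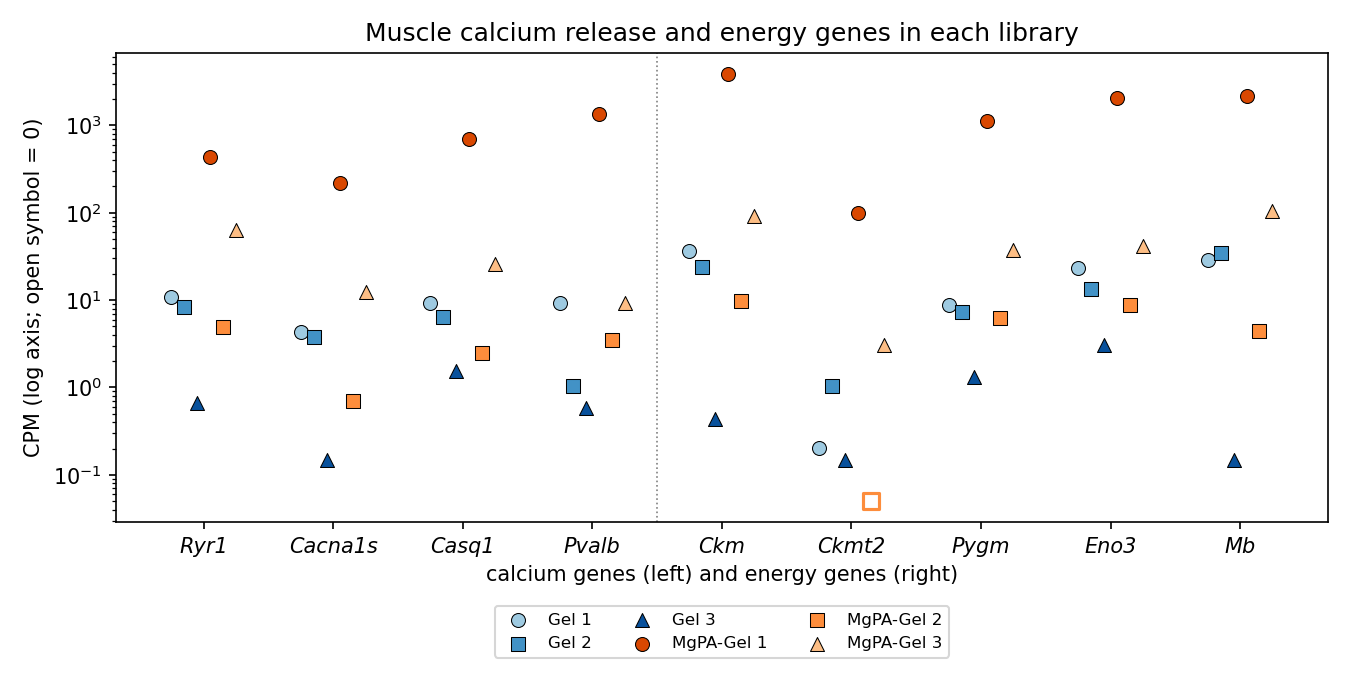
CPM (log axis) of the 9 genes in each of the 6 libraries, 1 point per library, with blue for Gel and orange for MgPA-Gel; the open symbol stands for a count of 0. MgPA-Gel 1 lies above every other library for each gene, and Gel 3 is the lowest for 8 of 9, Ckmt2 being the exception.

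Ryr1 (ENSRNOG00000020557, chromosome 1, 87959712 to 88066101, minus strand; positions here and below are those of the deposited table, for which no build is named) ran 10.9, 8.43 and 0.660 CPM across Gel and 429, 4.92 and 64.2 CPM across MgPA-Gel, where each group's libraries 1, 2 and 3 are listed in turn, as below. MgPA-Gel 1 and MgPA-Gel 3 lay above all Gel libraries, while MgPA-Gel 2 lay below Gel 1 and Gel 2, so the groups overlapped. Cacna1s (ENSRNOG00000046231, chromosome 13, 52889737 to 52964155, plus strand), the voltage sensor that opens Ryr1, ran 4.32, 3.81 and 0.147 CPM across Gel and 219.8, 0.694 and 12.3 CPM across MgPA-Gel. The value in Gel 3 was 2 counts (95% exact Poisson interval 0.0178 to 0.529 CPM; intervals here cover counting error only). Casq1 (ENSRNOG00000006930, chromosome 13, 90592681 to 90602365, minus strand), the calcium store protein, ran 9.39, 6.41 and 1.54 CPM across Gel and 700.3, 2.46 and 25.6 CPM across MgPA-Gel. These 3 genes of the release site followed 1 order of libraries, and in each the groups overlapped through MgPA-Gel 2.

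Pvalb (ENSRNOG00000006471, chromosome 7, 119429019 to 119441487, minus strand), the cytosolic calcium buffer, ran 9.39, 1.04 and 0.586 CPM across Gel and 1364, 3.47 and 9.19 CPM across MgPA-Gel. Its step from MgPA-Gel 1 to the next library was the largest of the 9, and its order of libraries was its own: MgPA-Gel 3 lay just below Gel 1, while the other 8 genes were higher in MgPA-Gel 3 than in every Gel library. Parvalbumin is also made by inhibitory neurons, and 5 neuronal markers (Gad1, Gad2, Slc32a1, Rbfox3 and Snap25) summed to 0.438 (MgPA-Gel 1) to 3.41 CPM (MgPA-Gel 2).

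Of the energy genes, Ckm (ENSRNOG00000016837, chromosome 1, 80321585 to 80331841, plus strand), the cytosolic creatine kinase, had the highest CPM in MgPA-Gel 1. It ran 36.0, 23.9 and 0.440 CPM across Gel and 3840.2, 9.72 and 92.9 CPM across MgPA-Gel. Ckmt2 (ENSRNOG00000055450, chromosome 2, 21422818 to 21437193, minus strand), its mitochondrial partner, ran 0.206, 1.04 and 0.147 CPM across Gel and 98.6, 0 and 3.10 CPM across MgPA-Gel. The 95% exact Poisson interval of the 0 in MgPA-Gel 2 reached up to 0.233 CPM, and those of Gel 1 and Gel 3 reached down to 0.0424 and 0.0178 CPM. Its counts were 3, 18 and 2 across Gel and 1577, 0 and 53 across MgPA-Gel, so that 3 libraries carried it past the filter.

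Pygm (ENSRNOG00000021090, chromosome 1, 221756286 to 221771143, plus strand), the muscle glycogen phosphorylase that frees glucose from glycogen, ran 8.70, 7.34 and 1.32 CPM across Gel and 1133, 6.25 and 37.9 CPM across MgPA-Gel. Eno3 (ENSRNOG00000004078, chromosome 10, 57278307 to 57283653, plus strand), the muscle enolase, ran 23.3, 13.3 and 3.08 CPM across Gel and 2040.3, 8.90 and 41.7 CPM across MgPA-Gel. Its Gel 3 value was the highest of the 9 genes in that library. Mb (ENSRNOG00000004583, chromosome 7, 118101634 to 118108864, minus strand), the oxygen carrier of oxidative fibres, ran 29.1, 34.6 and 0.147 CPM across Gel and 2158, 4.42 and 104.9 CPM across MgPA-Gel. Only Mb and Ckmt2 were higher in Gel 2 than in Gel 1. Of the 9 genes, Ckm alone overlapped another annotated gene, AABR07002677.1 on the opposite strand, which held 0 to 9 counts per library.

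Per length, in the deposited FPKM (fragments normalised to gene length and library size), the order of the genes also differed between libraries. In MgPA-Gel 1 it ran from Ckm at 2675 FPKM through Pvalb at 2544, Mb at 2285 and Eno3 at 1430.2 to Pygm at 394, Casq1 at 380.4, Ckmt2 at 78.7, Cacna1s at 39.6 and Ryr1 at 28.6. Mb led in Gel 1, Gel 2 and MgPA-Gel 3 (31.0, 36.6 and 111 FPKM), Ckm in MgPA-Gel 2 (6.71) and Eno3 in Gel 3 (2.15). Ryr1 and Cacna1s were among the lowest 3 levels in all 6 libraries.

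Compared between groups, the mean of each of the 9 genes was higher in MgPA-Gel, and none passed the test. Log2 fold changes (MgPA-Gel over Gel ± SE) were 4.63 ± 1.75 for Ryr1, 4.80 ± 2.07 for Cacna1s, 5.39 ± 2.08 for Casq1 and 6.97 ± 2.74 for Pvalb. On the energy side they were 6.03 ± 2.57 for Ckm, 6.11 ± 2.42 for Ckmt2, 6.08 ± 2.11 for Pygm, 5.72 ± 2.20 for Eno3 and 5.15 ± 2.49 for Mb. The Benjamini-Hochberg adjusted p of edgeR's quasi-likelihood test, two-sided and over all genes tested, was 0.998 for each. The median was 5.72, beside 0.03 over all genes tested, of which 54.8% had a higher mean. In edgeR the adjusted p was under 0.05 for 0 of 9 genes and for 0.0% of all genes tested, which is 0 genes, and limma-voom called 0 as well. DESeq2 called 0.0675% of all genes (10 genes). It gave an adjusted p for 3 of the 9, Ryr1, Cacna1s and Mb, none of them under 0.05. For the other 6 it gave a log2 fold change and SE but no adjusted p, so it made no call on them.

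By edgeR's unadjusted p at 0.05 there were 6 of 9, all higher, against 2.63% of all genes (389) in either direction and 1.78% (264) on the higher side. The 3 others were Cacna1s, Ckm and Mb. The 9 genes followed nearly the same libraries and so are not 9 separate observations. The spread within MgPA-Gel exceeded the mean: Ckm averaged 20.1 ± 18.1 CPM in Gel and 1314 ± 2188 in MgPA-Gel (SD, n = 3), and Pygm 5.78 ± 3.93 and 392 ± 641.

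The groups overlapped in 9 of 9 genes, so that 0 of 9 were apart, against 6.88% of all genes tested. Without MgPA-Gel 1 the log2 fold changes ran from 0.79 (Pvalb) to 2.37 (Ryr1) with a median of 1.35. Without MgPA-Gel 2, 8 of 9 genes had groups apart, all but Pvalb, against 18.7% of all genes with that library left out. Without Gel 1, 1 of 9 did, against 12.7%.

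**Figure D2:**
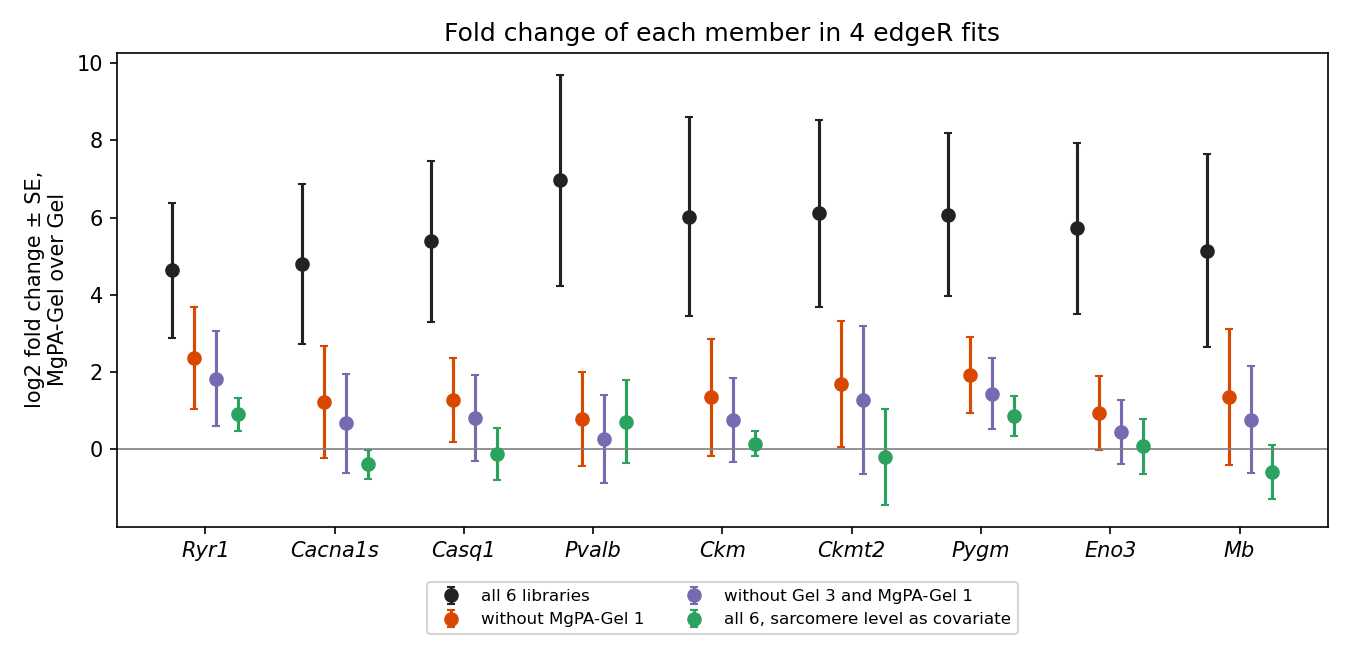
Log2 fold change (MgPA-Gel over Gel, points, with bars of 1 SE) of the 9 genes in 4 edgeR fits. With all 6 libraries the values lie between 4.63 and 6.97; without MgPA-Gel 1 they lie between 0.79 and 2.37, without both it and Gel 3 their median is 0.77, and with the fast-fibre sarcomere level as a covariate between -0.59 and 0.91.

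The levels followed those of the contractile apparatus. The 8 fast-fibre sarcomere genes with a row (Acta1, Myh1, Myl1, Mylpf, Tnnt3, Tnni2, Tnnc2 and Actn3) had sums of 487, 273 and 11.5 CPM across Gel and 37789.5, 96.3 and 1367 CPM across MgPA-Gel, the same order of libraries as Ckm. Myh2 and Myh4, fast myosins of the same list, had no row. Acta1 is the actin of slow fibres as well, so the list is not confined to fast fibres. In 8 of the 8 genes with a row the highest library was MgPA-Gel 1 and the lowest Gel 3. The sum of the slow-fibre sarcomere genes did not peak there. Their 6 members had sums of 24.6, 30.5 and 4.25 CPM across Gel and 62.9, 7.07 and 115 CPM across MgPA-Gel, highest in MgPA-Gel 3. Myh7, the slow myosin heavy chain, held 24 counts in MgPA-Gel 1 and 386 in MgPA-Gel 3. Markers of satellite cells and regenerating fibres, 8 genes led by the embryonic myosin Myh3, had sums of 10.5, 20.4 and 0.366 CPM across Gel and 224, 3.47 and 83.1 CPM across MgPA-Gel. Only 3 of the 8 passed the filter on low counts, and Pax7, Myf5, Myog, Mymk, Mymx and Myh8 were each at 0 in some library. The part of these markers in the results was not tested.

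With the fast-fibre level as a covariate in the edgeR fit, 5 of 9 genes kept a positive log2 fold change and 4 had a negative one, with a median of 0.076. The values ran from -0.59 ± 0.70 for Mb to 0.91 ± 0.42 for Ryr1, and none passed (smallest adjusted p of the 9 in edgeR = 0.997). The covariate held Tnnt3, Tnnc2 and Mylpf, each at a Pearson's r of 0.997 with the mean profile of the 9 genes. Smaller fold changes thus follow from the choice of covariate, and no cause is read from them.

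**Figure D3:**
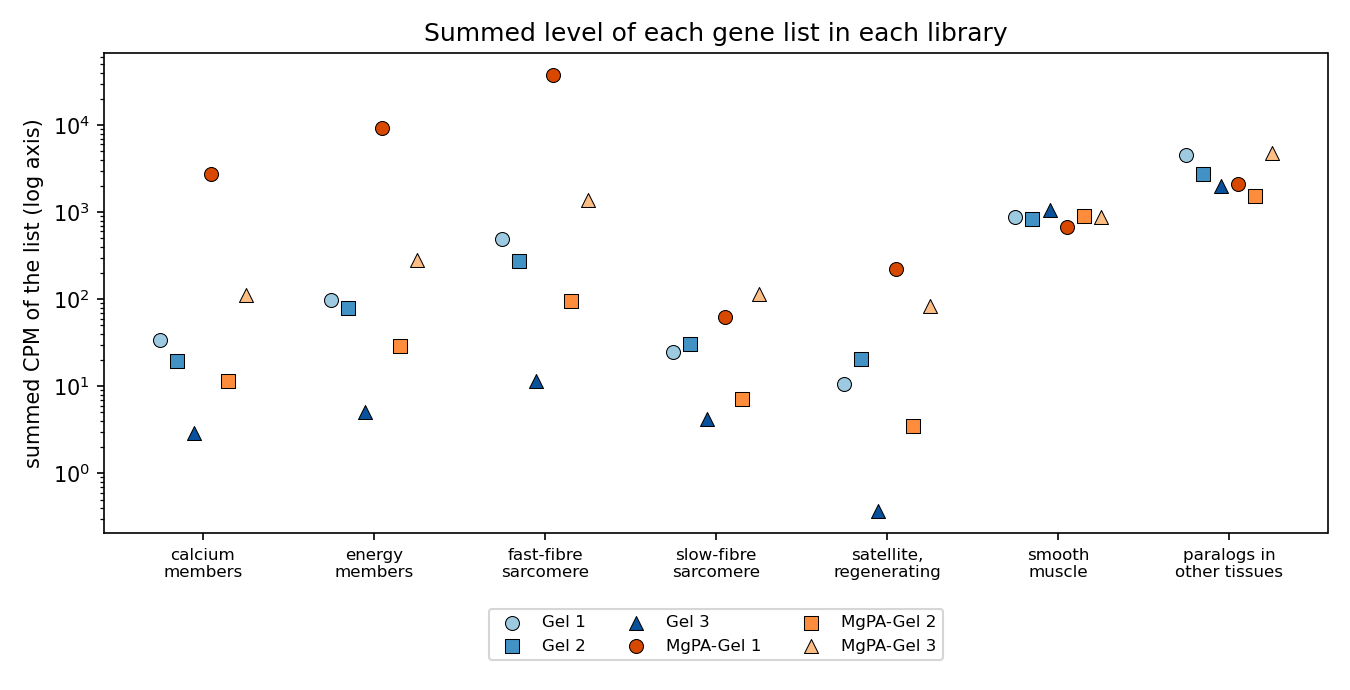
Summed CPM (log axis) of the calcium genes, the energy genes and 5 other gene lists in each library, 1 point per library. Calcium, energy and fast-fibre sums share 1 order of libraries from 2.93, 5.13 and 11.5 CPM in Gel 3 upward, the slow-fibre sum is highest in MgPA-Gel 3, and smooth muscle stays between 674 and 1045 CPM.

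Other muscle types gave no such pattern. The 6 smooth muscle markers, with Tagln and Acta2 the most abundant, had sums of 837 to 1045 CPM among Gel and 674 to 900.2 CPM among MgPA-Gel libraries, and 4 of 6 had a lower mean in MgPA-Gel. The 5 cardiac markers had sums of 6.67 to 10.8 CPM among Gel and 8.27 to 13.7 CPM among MgPA-Gel libraries, almost all of it Tnnt2. Nppa was at 0 in all 6 libraries, and Myh6 had counts in Gel 3 and MgPA-Gel 3 only. Neutrophil markers, 5 genes led by S100a9, had sums of 182, 228 and 63.0 CPM across Gel and 712, 1986 and 150.3 CPM across MgPA-Gel. Their sum was highest in MgPA-Gel 2, with MgPA-Gel 1 next and Gel 3 lowest, and 2 of the 5 were highest in MgPA-Gel 1. The sums of 5 macrophage markers ran 1044, 942 and 737 CPM across Gel and 695, 809 and 1451 CPM across MgPA-Gel, and those of 5 adipocyte markers 154, 72.1 and 62.0 CPM across Gel and 184, 43.9 and 156 CPM across MgPA-Gel. Only 2 of the 5 adipocyte markers passed the filter on low counts, and Plin1, Cidec and Lep were each at 0 in some library. The part of these cell types in the levels of the 9 genes was not tested.

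Each gene was also scaled to the fast-fibre sarcomere counts of its own library. Over all 6 libraries the highest value was 2.40 times the lowest for Cacna1s, 2.66 times for Ckm and 5.05 times for Ryr1. The ratio was 6.42 for Pygm, 8.78 for Eno3, 9.93 for Mb and 13.4 for Pvalb. For Casq1 it was 7.22, through Gel 3, which held only 157 sarcomere counts. Ckmt2, with a count of 0 in MgPA-Gel 2, has no such ratio. Without Gel 3, left out after its values were seen, Casq1 and Ckm had the smallest ranges and Cacna1s still ranged 2.40 times. Mb then ranged 2.76 times, Eno3 3.03 times, Pygm 3.63 times, Ryr1 4.50 times and Pvalb 9.49 times. Casq1 stood at 19.3 and 23.4 counts per 1000 sarcomere counts in Gel 1 and 2 and at 18.5, 25.6 and 18.7 in MgPA-Gel 1, 2 and 3, a range of 1.38 times over 5 libraries whose Casq1 level ran from 2.46 to 700.3 CPM. Ckm stood at 73.9 and 87.5 in Gel 1 and 2 and at 101.6, 100.9 and 68.0 in MgPA-Gel, a range of 1.49 times. In Gel 3 Casq1 was at 134 (95% exact Poisson interval 82.8 to 204.5, which takes the sarcomere count as fixed), Eno3 at 268 (193 to 362) and Pygm at 115 (68.0 to 181), each above the other 5 libraries, while Ckm was at 38.2 and Mb at 12.7, each below them. The Gel 3 intervals of Casq1 and Eno3 lay above those of the other 5 libraries, and that of Pygm overlapped MgPA-Gel 2. The Gel 3 interval of Ckm, from 6 counts, overlapped those of Gel 1, Gel 2 and MgPA-Gel 3. That of Mb, from 2 counts, overlapped MgPA-Gel 2. The low place of Ckm in Gel 3 was thus within counting error of 3 libraries, and that of Mb within counting error of 1.

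On this scale Ryr1, Cacna1s and Casq1, the 3 genes of the release site, were lowest in MgPA-Gel 1, where their CPM was highest. Ryr1 was at 22.3, 30.8 and 57.3 per 1000 across Gel and at 11.4, 51.1 and 47.0 across MgPA-Gel. The 95% interval in MgPA-Gel 1, 11.1 to 11.6, lay below those of the other 5. Cacna1s was at 5.82 there and at 7.21 to 13.9 in the others. Its interval there overlapped those of MgPA-Gel 2 and of Gel 3, the latter from 2 counts (1.54 to 46.0). Casq1 in MgPA-Gel 1 (18.2 to 18.9) overlapped Gel 1, MgPA-Gel 2 and MgPA-Gel 3, so that its low place there was within counting error. None of the 9 genes had groups apart on this scale, and no test was made of it.

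**Figure D4:**
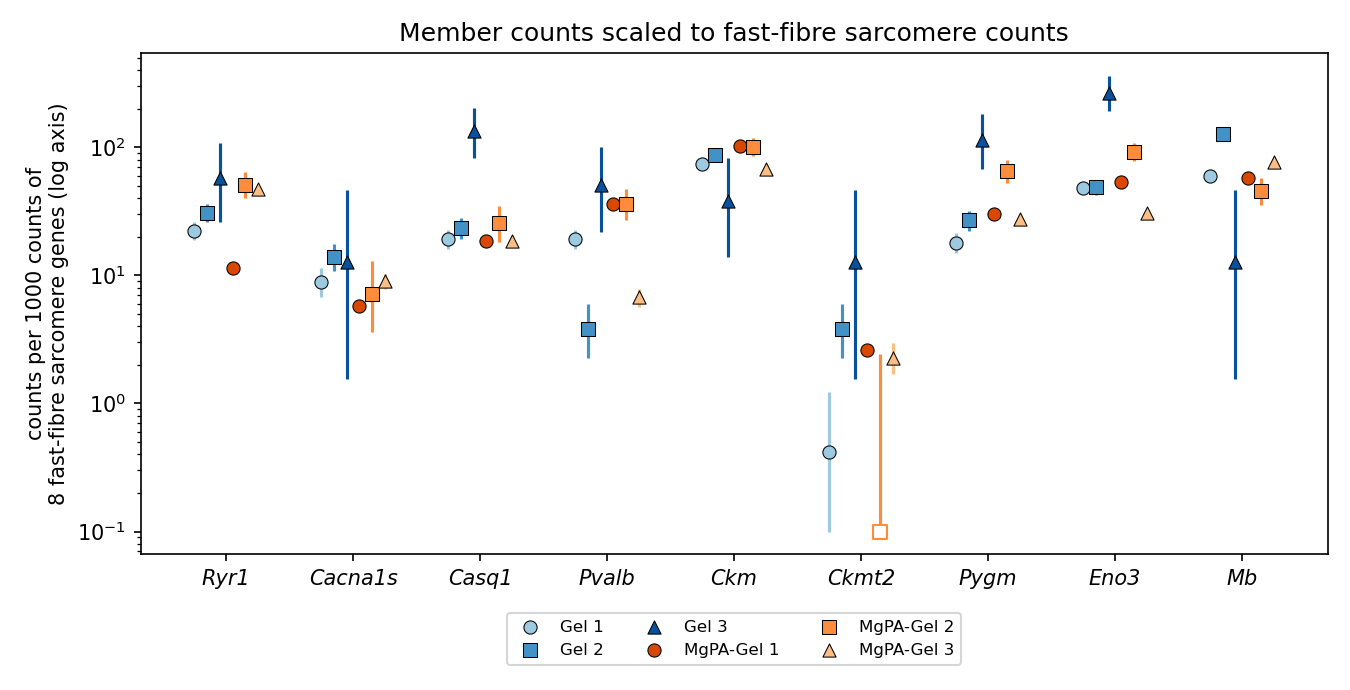
Counts of each gene per 1000 counts of the 8 fast-fibre sarcomere genes of the same library (log axis), with 95% exact Poisson intervals as bars; the open symbol stands for a count of 0, and bars are drawn down to 0.1 at most. Casq1 and Ckm lie close together in 5 libraries, Gel 3 stands apart for Casq1 and Eno3, and Pvalb is low in Gel 2 (3.80) and MgPA-Gel 3 (6.72).

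Pvalb and Mb, which mark the fast glycolytic and the oxidative ends of the fibre types, differed in ratio between libraries of the same group. Pvalb made up 24.4% of the counts of the pair in Gel 1 (95% exact Clopper-Pearson interval 20.9 to 28.1), 2.92% in Gel 2 (1.74 to 4.57) and 80.0% in Gel 3 (44.4 to 97.5, from 10 counts in all). In MgPA-Gel it made up 38.7% (38.3 to 39.1), 44.0% (35.1 to 53.2) and 8.05% (6.88 to 9.35). The low shares were in Gel 2 and MgPA-Gel 3, 1 library of each group, so the groups overlapped. Slow genes took 4.80%, 10.03% and 27.0% of slow and fast sarcomere counts across Gel and 0.166%, 6.84% and 7.78% across MgPA-Gel. The fast counts include Acta1, which slow fibres also make. Mb per 1000 fast-fibre counts ran 59.7, 127 and 12.7 across Gel and 57.1, 45.9 and 76.8 across MgPA-Gel. It was highest in Gel 2 and MgPA-Gel 3, where the share of Pvalb was low, and Mb counts enter both quantities. In Gel 3, where the slow share was highest, it was lowest, from 2 Mb counts.

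The calcium pump Atp2a1 had no row by name, but 2 rows carry its description in the deposited table. AABR07005775.1 (ENSRNOG00000047124, chromosome 1, 197856903 to 197858016, minus strand), described as similar to the mouse Atp2a1 protein, ran 13.3, 6.41 and 0.513 CPM across Gel and 1409.9, 3.218 and 32.2 CPM across MgPA-Gel. A row with neither a symbol nor an Ensembl identifier (197863420 to 197875135, minus strand), described as SERCA1, ran 10.4, 4.97 and 0.293 CPM across Gel and 528, 4.42 and 27.6 CPM across MgPA-Gel. Both followed the order of libraries of Ryr1 and Ckm. They were picked after the table was read and are not counted among the 9.

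In the GRCr8 gene table Atp2a1 lies between Rabep2 and Sh2b1, and the same 2 genes flank these rows. Rabep2, a Rab5 effector of endocytosis on the plus strand, ended just before AABR07005775.1. It ran 26.7, 26.1 and 26.9 CPM across Gel and 807, 19.8 and 29.9 CPM across MgPA-Gel, so that 1 library stood apart. Sh2b1, on the other side, reached 66.8 CPM in MgPA-Gel 1 beside 36.5 to 46.2 elsewhere. The strandedness of the libraries is not stated, so reads of Atp2a1 that fall in the Rabep2 model could not be told from reads of Rabep2.

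Genes of the same families that serve other tissues did not share the pattern. Of 16 paralogs 15 had a row and 12 were tested, of which 5 had a higher and 7 a lower mean in MgPA-Gel; their median log2 fold change was -0.14 beside 0.03 over all genes. In edgeR 0 of the 12 passed. Casq2, the slow-fibre and cardiac calsequestrin, was the only paralog of the 12 that was highest in MgPA-Gel 1, running 4.04, 7.05 and 9.67 CPM across Gel and 29.1, 5.87 and 19.5 CPM across MgPA-Gel. Ckb, the brain-type creatine kinase, ranged from 529 CPM in MgPA-Gel 2 to 3472 in MgPA-Gel 3, with 1376 in MgPA-Gel 1. Eno1, the ubiquitous enolase, was lowest in MgPA-Gel 1, at 364 CPM beside 442 to 842 in the other 5. Atp2a2, the pump of slow and cardiac muscle and of most other cells, ran 198, 275 and 229 CPM across Gel and 180.4, 294 and 297 CPM across MgPA-Gel.

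As a share of the family's summed FPKM, the muscle form of several enzymes was a minor part everywhere except MgPA-Gel 1. Ckm made up 0.0378% to 2.59% of Ckm and Ckb in 5 libraries and 73.5% in MgPA-Gel 1. Eno3 made up 0.913% to 6.45% of the 3 enolases in 5 libraries and 88.1% in MgPA-Gel 1. Pygm, with the brain form Pygb and the liver form Pygl, made up 2.06% to 34.9% in 5 libraries and 95.8% in MgPA-Gel 1.

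Ryr1 was over 50% of its family in 5 libraries. Among the 3 ryanodine receptors its share was 68.6%, 58.3% and 14.9% across Gel and 99.3%, 53.9% and 91.8% across MgPA-Gel. Ryr3 stood at 2.81 to 5.49 CPM over all 6 libraries, and Ryr2, the cardiac form, held 0 to 12 counts. Cacna1s was 0.797% of its family in Gel 3, where Cacna1c, the L-type channel of heart and smooth muscle, stood at 25.5 CPM, and 94.8% in MgPA-Gel 1. Mb went from 0.673% of the summed Mb, Cygb and Ngb level in Gel 3 to 99.2% in MgPA-Gel 1, while Cygb, a globin of fibroblasts, stayed between 35.2 and 47.9 CPM. Ckmt1 held 0 to 10 counts per library, so the share of Ckmt2 rests on few counts.

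**Figure D5:**
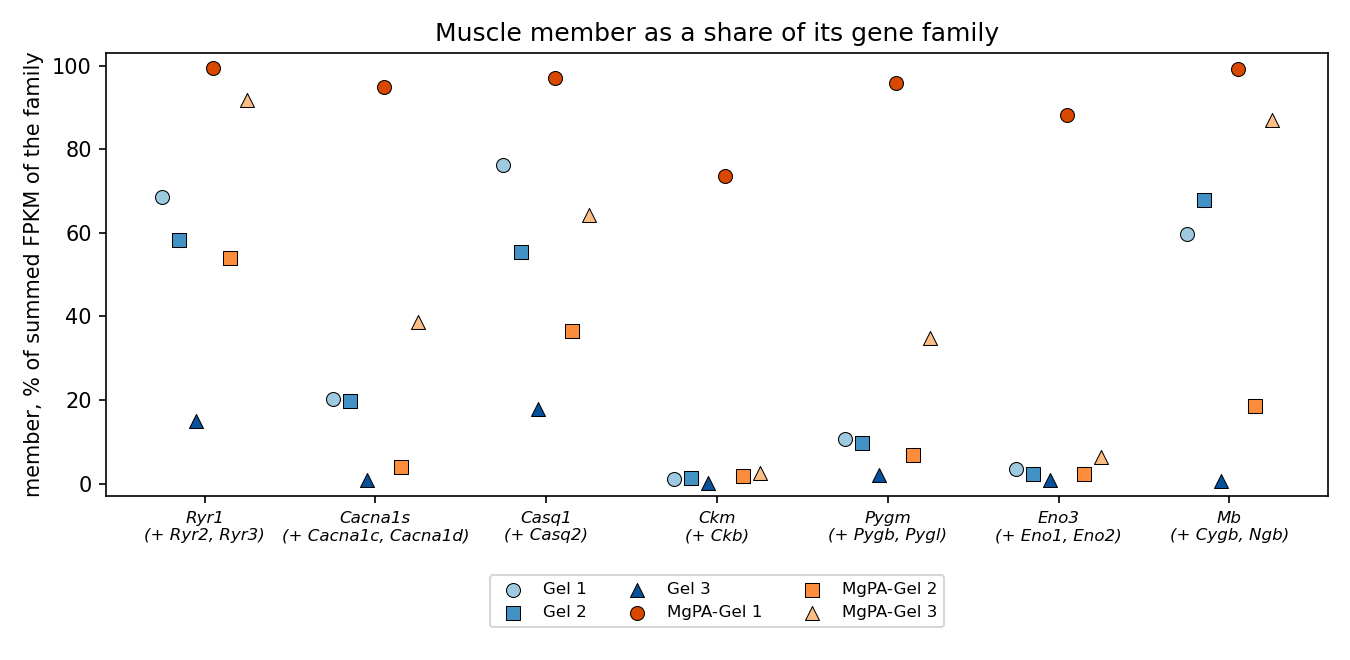
Share of each muscle gene in the summed FPKM of its family (percent), 1 point per library; the paralogs summed with it stand in brackets. In MgPA-Gel 1 the muscle form holds from 73.5% (Ckm) to 99.3% (Ryr1), and in Gel 3 it holds at most 17.9% (Casq1), Ckmt2 aside, whose paralog is near 0.

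Partners of the calcium genes at the triad, where the transverse tubule meets the reticulum, were mostly highest in the same library. Of 25 listed, 24 had a row and 23 were tested. Of these 21 had a higher and 2 a lower mean in MgPA-Gel, 0 passed, and 18 were highest in MgPA-Gel 1; the median log2 fold change was 3.14. The 4 of highest mean CPM were Fkbp1a, a ryanodine receptor binding protein made in most cells, Dysf, the membrane repair protein dysferlin, Asph, whose locus also codes for junctin, and Tmem38a, a potassium channel of the reticulum. Fkbp1a and Dysf were the 2 with a lower mean (-0.11 ± 0.21 and -0.08 ± 0.20), and Asph differed by 0.17 ± 0.18. Tmem38a ran 10.7, 11.3 and 4.54 CPM across Gel and 415, 4.985 and 22.0 CPM across MgPA-Gel.

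A further pair was chosen after its values were seen. Cacng1, the gamma subunit of Cav1.1, ran 3.70, 2.02 and 0 CPM across Gel and 149.5, 0.126 and 9.715 CPM across MgPA-Gel. Stac3, the adaptor that Cav1.1 needs to couple to Ryr1, ran 1.51, 1.68 and 0.147 CPM across Gel and 99.3, 0.126 and 4.33 CPM across MgPA-Gel. In 1 of the 23 the groups were apart, against 6.88% of all genes: Cacna2d1, a channel subunit also made outside muscle, ran 12.3, 16.98 and 17.2 CPM across Gel and 17.4, 20.9 and 18.1 CPM across MgPA-Gel.

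Of 30 further genes of muscle energy supply 28 had a row and 24 were tested. All 24 had a higher mean in MgPA-Gel and 0 passed; the median log2 fold change was 1.33, and 23 were highest in MgPA-Gel 1, Hk2, a hexokinase, being the exception. The 4 of highest mean CPM were the glycolytic enzymes Aldoa, Gapdh, Pkm and Ldha. Aldoa ran 870, 679 and 458 CPM across Gel and 4728, 545 and 816.5 CPM across MgPA-Gel (log2 fold change 1.60 ± 0.83). Gapdh differed by 1.15 ± 0.68 and Ldha by 0.52 ± 0.40. Pkm and Phkb, a phosphorylase kinase subunit, were the 2 whose groups were apart, against 6.88% of all genes, with Pkm at 823.5, 728 and 550.2 CPM across Gel and 963, 897 and 859 CPM across MgPA-Gel. Chosen after their values were seen, Pgam2, the muscle phosphoglycerate mutase, and Ampd1, the muscle AMP deaminase, had log2 fold changes near those of the 9 genes, 6.29 ± 2.22 and 6.22 ± 2.26, again through MgPA-Gel 1 (1058 and 318 CPM).

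Over the whole table, the 6 named genes whose log2 CPM was most like the mean standardised profile of the 9 were Cmya5, Tnnt3, Hhatl, Tnnc2, Mylpf and Rbfox1, with Pearson's r of 0.997 to 0.998 over the 6 libraries. They were ranked by that r and it is given as a measure of likeness, with no test. All 6 had their highest CPM in MgPA-Gel 1 and their lowest in Gel 3. Tnnt3 and Tnnc2 are troponin subunits and Mylpf a myosin light chain of fast fibres, and Rbfox1 is an RNA-binding splicing factor. Cmya5 ran 14.6, 8.61 and 1.91 CPM across Gel and 616, 5.49 and 35.1 CPM across MgPA-Gel. Of the 9 genes themselves, Ckmt2 and Pvalb lay farthest from the shared profile, at r of 0.939 and 0.948, and Casq1 and Pygm nearest, at 0.993 each. In all, 193 other named genes had an r over 0.95.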

How the data were processed

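The authors deposited gene counts, whole and not normalized, and FPKM for the same genes; per the file headers, both tables name the 6 libraries and give a gene length. Per the submitters' processing notes, which state no roles, the tools were edgeR 3.22.5, DESeq2 1.20.0, StringTie 1.3.3b, HISAT2 2.0.5, featureCounts 1.5.0-p3 and fastp. The genome build and strandedness are not named. In the count table, 11692 blank rows and 2 columns without a name were not used. Counts were fitted with edgeR 4.0.16 (R 4.3.3): filterByExpr, TMM factors, robust glmQLFit and glmQLFTest, two-sided, Benjamini-Hochberg over all genes tested, threshold 0.05. A fold change is the edgeR coefficient, and its SE is the coefficient divided by the square root of F. CPM use TMM-adjusted library sizes, and log2 CPM a prior count of 2. DESeq2 1.42.0 and limma 3.58.1 (voom, and log2(FPKM + 1) or log2(FPKM + 0.1)) served as alternatives. An exact permutation test of 3 against 3 cannot go below 0.1, so none was run. The fit was tested on simulated counts. The spread between libraries was a coefficient of variation of 41.3%. Replicate libraries differed by far more than counting noise.

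The members, the gene lists and the alternatives were chosen with earlier results of these data known. Named genes were the members, the 4 partners of highest mean CPM per list where none passed, their paralogs, marker lists and the 6 genes of highest likeness. Rabep2, Sh2b1, the rows described as SERCA1, Cacng1, Stac3, Pgam2, Ampd1, Cacna2d1, Phkb, Hk2 and the CAGCTG motif were picked after values were seen.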

Additional observations from a re-analysis of the deposited data

How the results depend on the processing

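Over 18 alternatives the 9 members gave 162 log2 fold changes, of which 158 stayed positive. An adjusted p came with 156 of them, 0 of which passed; DESeq2 gave none for Casq1, Pvalb, Ckm, Ckmt2, Pygm and Eno3. The 4 that turned negative were all with the fast-fibre sarcomere level as a covariate: Cacna1s at -0.38, Casq1 at -0.12, Ckmt2 at -0.19 and Mb at -0.59. That fit left 5 members with a higher mean and a median of 0.076, and gives no count of groups apart. Without both Gel 3 and MgPA-Gel 1 the median was 0.77. Leaving out 1 library at a time, the median ran from 1.35 (without MgPA-Gel 1) to 6.29 (without MgPA-Gel 2), members with groups apart from 0 to 8, and genes past the threshold from 0 to 2. Genes past the threshold numbered 10 with DESeq2. The median was 3.60 with limma-voom, 3.03 on log2(FPKM + 1) and 3.19 on log2(FPKM + 0.1). By definition limma averages log2 levels within a group, while the edgeR coefficient follows the ratio of group means. A single high library weighs more in such a ratio. The part of this difference in the medians, and the cause of the other shifts, were not tested. The replicate numbers were not taken to pair the libraries in the main fit, as no label says that they do. Same-numbered libraries correlated at 0.25, 0.20 and -0.03 in their deviations from the group means, and different-numbered ones at -0.29 to 0.06. Whether the numbers mark a pairing was not tested. With a replicate block the median was 4.11, and 0 genes passed. The 9 members held 110 counts in all in Gel 3 and 647 in MgPA-Gel 2, which limits the precision of their values there.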
